A study of Drosophila melanogaster with 25 samples.

Results

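chinmo (chronologically inappropriate morphogenesis, annotated as CG31666 on chromosome arm 2L) was measured by 3 probe sets of the array, 1628005_at, 1629484_s_at and 1636985_s_at. It is 1 gene of the 11981 named by a probe set with a single gene. The gene was chosen by its measured signal: it was higher in leg, wing and antennal discs with ectopic ey, and in leg discs with ectopic ey that lack ato. Those 4 contrasts are therefore given below as a description, without a test. Tests are given for the eye disc, for wild-type discs against each other, for the loss of ato and for differences in the size of the change between discs.

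The arrays held RNA of imaginal discs, the larval epithelia that form adult appendages and eyes, from Drosophila larvae of the third instar. By its title, the study looked for direct targets of Eyeless. The 25 arrays fell into 8 groups, with 4 arrays for wild-type eye discs and 3 for each of the others. There were 3 leg groups, namely wild type, UAS-ey (a transgene for Eyeless, a Pax6-type regulator of eye formation) and UAS-ey in an ato mutant (ato, atonal, is the proneural gene of the photoreceptors). Wing discs were wild type or UAS-ey, antennal discs were wild type or titled Uey, and eye discs were wild type. No source used here gives the driver of the transgene, the ato allele or the meaning of Uey, which was read as the antennal form of UAS-ey. The design text calls the replicates biological, and the wild-type arrays of the tests are also the baselines of the contrasts that chose the gene.

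chinmo encodes a nuclear protein with a BTB domain and zinc fingers that represses transcription. It is known from the brain, where its level in newborn neurons sets their temporal identity and where it keeps neural stem cells in an early, proliferative state together with the RNA-binding protein Imp. In imaginal discs it is a gene of the early larval progenitor state that is later replaced by broad (br) and Eip93F. In the eye disc and in the stem cells of the testis it is known as an effector of JAK/STAT signalling, the pathway started by the secreted Unpaired ligands.

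All values are log2 signals as deposited. The lowest possible value was 6.91, a floor shared by 25.2% to 33.7% of the probe sets of each array. The probe set 1628005_at had the highest mean and represents the gene below. In wild-type wing discs its 3 arrays read 7.30, 7.10 and 7.40, and in wild-type leg discs 8.15, 7.78 and 8.38. In wild-type antennal discs it read 8.41, 8.49 and 8.40, and on the 4 eye arrays 9.0, 9.07, 9.06 and 8.72. The arrays of the 4 kinds of wild-type disc did not overlap, in the order wing, leg, antenna and eye, although the highest leg and the lowest antennal array lay close together.

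With ectopic ey the signal was much higher. 1628005_at read 11.23, 10.96 and 11.62 in UAS-ey leg discs, 11.22, 11.18 and 11.18 in Uey antennal discs and 11.38, 11.46 and 11.60 in ato-mutant UAS-ey leg discs. In UAS-ey wing discs it read 10.98, 9.01 and 9.63, so that replicate 1 was near the other ectopic discs and replicates 2 and 3 were near the eye disc. In each of the 4 contrasts the lowest array with ectopic ey lay above the highest wild-type array of that disc, by 2.59 in leg, 1.61 in wing, 2.69 in antenna and 3.0 in ato-mutant leg.

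**Figure D1:**
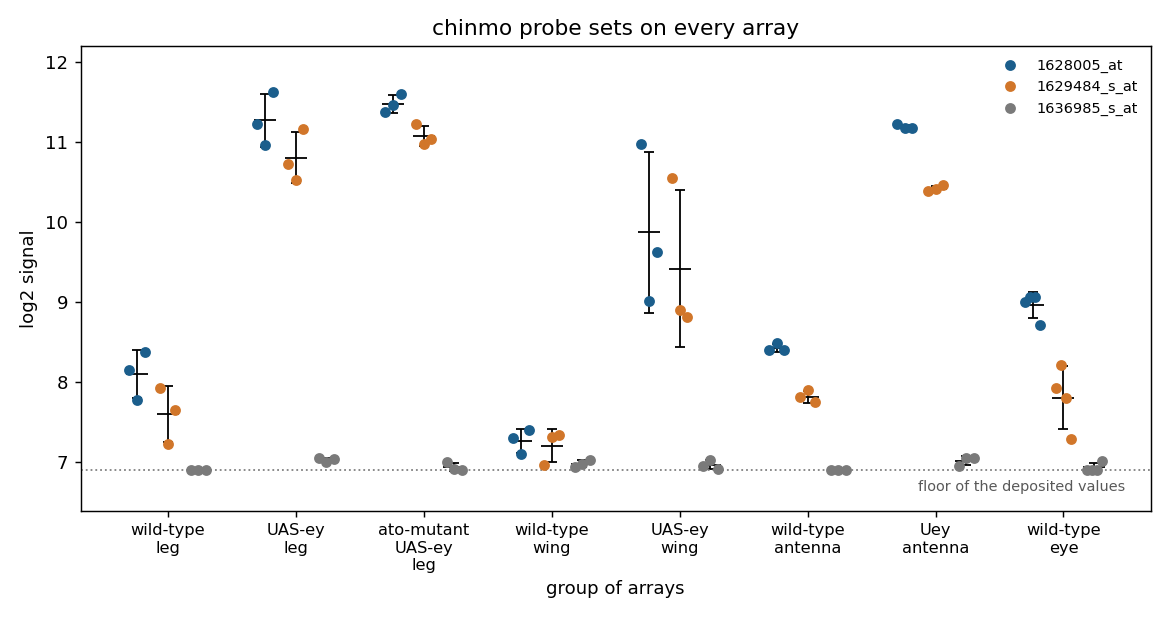
log2 signal of the 3 chinmo probe sets (colours) on each of the 25 arrays by group, with group means (dashes) and SD (bars). The dotted line is the floor of 6.91. The 2 brighter probe sets stood apart with ectopic ey, the 3 UAS-ey wing arrays were spread widely (SD 1.01 for 1628005_at), and 1636985_s_at stayed at or near the floor.

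The differences of the group means for 1628005_at were 3.17 in leg discs (standard error 0.32, 9.0-fold), 2.61 in wing discs (6.10-fold), 2.76 in antennal discs (6.77-fold) and 3.38 in ato-mutant leg discs (10.4-fold). Among the 18769 probe sets tested, 13 had a larger positive difference in leg discs, 13 in wing discs, 29 in antennal discs and 42 in ato-mutant leg discs. Those of leg and ato-mutant leg discs include the other chinmo probe set 1629484_s_at (3.21 and 3.48). The leg and the ato-mutant leg contrasts share the wild-type leg arrays. In bulk discs a difference in the share of cells that express a gene and a difference in the RNA per cell cannot be told apart.

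Genes whose representative probe set passed the limma threshold (adjusted p under 0.05) in the higher direction in all 4 contrasts numbered 187, or 1.56% of those named. Ordered by the smallest of their 4 differences, chinmo was in position 5 with 2.61. Ahead of it were the hairpin RNA genes hpRNA:CR32207 with 4.02 and hpRNA:CR33940 with 3.06, CG4210 with 3.54 and the neprilysin-like peptidase gene Nepl3 with 2.95. The next was pst (pastrel, known for resistance to a virus) with 2.51. This order describes the choice of the gene and is no test of it. CG4210 had means of 6.91, the floor, in wild-type leg, wing, antennal and eye discs and of 10.45 to 10.53 with ectopic ey. A difference in genetic background between the stocks would coincide with ectopic ey in all 4 contrasts and cannot be told apart from it. The part of the stock was not tested.

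The probe set 1629484_s_at gave the same picture. It read 7.93, 7.23 and 7.65 in wild-type leg discs against 10.73, 10.53 and 11.16 with UAS-ey, and 11.22, 10.97 and 11.04 in ato-mutant UAS-ey leg discs. In wing discs it read 6.97, 7.32 and 7.34 in the wild type against 10.55, 8.90 and 8.81 with UAS-ey. Antennal discs read 7.82, 7.90 and 7.75 against 10.39, 10.41 and 10.46 with Uey. The arrays of the paired groups did not overlap in any of the 4 contrasts. The differences were 3.21 in leg (9.23-fold), 2.21 in wing (4.63-fold), 2.60 in antennal (6.07-fold) and 3.48 in ato-mutant leg discs (11.1-fold).

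1636985_s_at did not follow the other probe sets. It lay between 6.91 and 7.06 on all 25 arrays and was at the floor on all 6 arrays of wild-type leg and antennal discs. With UAS-ey it read 7.05, 7.01 and 7.04 in leg discs, with a mean 1.09-fold above the floor. In Uey antennal discs it read 6.96, 7.06 and 7.05, with a mean 1.08-fold above the floor. In wing discs the difference was -0.02. A probe set at the floor gives no level of the transcript it targets, and the position of the 3 probe sets on the 6 RefSeq transcripts of the gene was not analysed here.

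Over the 25 arrays the Pearson correlation of 1628005_at and 1629484_s_at was 0.972, and over the 8 group means 0.981. After the group means were removed it was 0.855, and 0.680 over the 22 arrays without UAS-ey wing discs, so the single arrays moved together within groups too. Both probe sets read the same RNA of each array, which these correlations share. 1636985_s_at correlated with them at 0.367 and 0.415.

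The distance between the 2 brighter probe sets was not the same in every disc. 1628005_at exceeded 1629484_s_at by 1.15 ± 0.25 (SD, n = 4) in eye discs, with single arrays from 0.85 to 1.43. On the other 21 arrays the excess was at most 0.83. It was 0.06 ± 0.28 in wild-type wing discs, from -0.22 to 0.33, where both probe sets were near the floor. Between these lay the leg groups, with means from 0.40 to 0.50, and the antennal groups with 0.61 and 0.77. The eye arrays had the widest distance and the wild-type wing arrays the narrowest, and this difference was not tested.

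**Figure D2:**
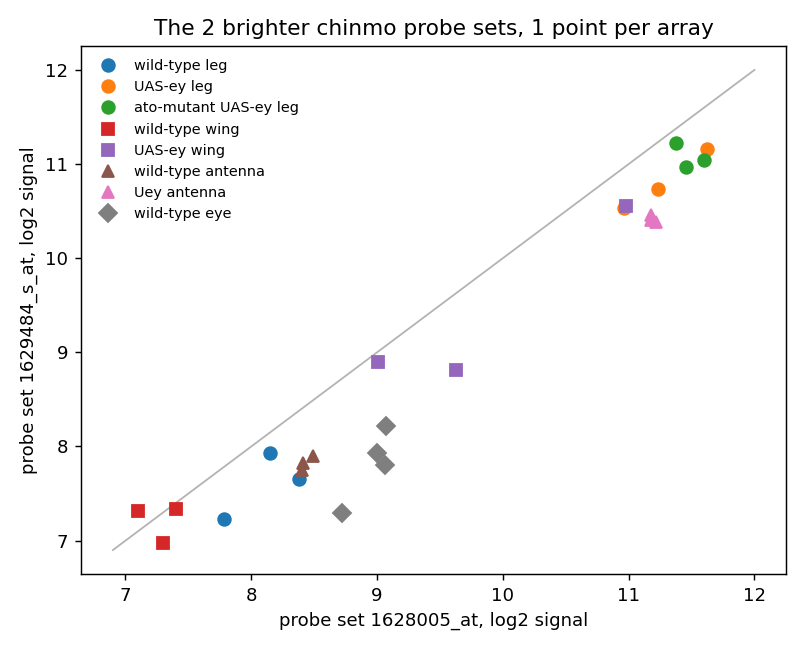
log2 signal of 1628005_at (horizontal) against 1629484_s_at (vertical), 1 point per array, with colour and shape for the group and the line of equal values. The ectopic-ey arrays formed the upper right part, 2 UAS-ey wing arrays lay in the middle, and the eye arrays sat farthest to the right of the line.

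By mean of 1628005_at, the order from low to high was wild-type wing (7.27 ± 0.15, SD, n = 3), wild-type leg (8.10 ± 0.30), wild-type antenna (8.44 ± 0.05), wild-type eye (8.96 ± 0.17, n = 4), UAS-ey wing (9.87 ± 1.01), Uey antenna (11.20 ± 0.02), UAS-ey leg (11.27 ± 0.33) and ato-mutant UAS-ey leg (11.48 ± 0.11). Several neighbours in this order did not pass the test, although their arrays did not overlap. The test uses 1 estimate of spread from all 8 groups, among which UAS-ey wing had the largest SD. The difference of leg and wing was 0.84 (95% interval 0.17 to 1.5, limma adjusted p = 0.13), that of antenna and leg 0.33 (adjusted p = 0.752) and that of eye and antenna 0.53 (95% confidence interval -0.09 to 1.15, adjusted p = 0.392, and 0.029 with only the groups compared). With only the groups compared, these 3 differences had standard errors of 0.19, 0.17 and 0.10, against 0.32, 0.32 and 0.29 in the main fit. Leg and wing, and antenna and leg, did not pass there either (limma adjusted p = 0.207 and 0.398). Wild-type differences were not refitted without single UAS-ey wing arrays. UAS-ey wing arrays overlapped with eye arrays, and UAS-ey leg arrays with those of Uey antenna and of ato-mutant UAS-ey leg.

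Among wild-type discs, chinmo had its lowest mean in the wing. The eye disc exceeded the wing disc by 1.70 for 1628005_at (95% interval 1.08 to 2.32, 3.24-fold, limma adjusted p = 0.000316), and the antennal disc exceeded it by 1.17 (2.25-fold, adjusted p = 0.0213). Eye against leg gave 0.86 (0.24 to 1.48, 1.81-fold, adjusted p = 0.0559), with no overlap between arrays. Of all probe sets, 12.9% passed this test between wild-type antenna and wing, 5.12% between leg and wing and 5.89% between antenna and leg. Leaving out single arrays moved these counts widely, from 2428 probe sets to between 978 and 3860, from 961 to between 392 and 3427 and from 1106 to between 488 and 1538. In the eye disc 9.5% were higher and 20.1% lower than in the wing, 6.6% higher and 9.75% lower than in the leg, and 5.43% higher and 5.18% lower than in the antenna.

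None of these wild-type differences passed for 1629484_s_at. Eye minus wing was 0.60 (adjusted p = 0.175), antenna minus wing 0.61 (adjusted p = 0.282), eye minus leg 0.21 (adjusted p = 0.911) and eye minus antenna -0.01 (adjusted p = 1.0). The higher chinmo signal of the wild-type eye disc thus rested on 1 of the 2 brighter probe sets. For 1628005_at, the antenna and wing call was lost without wild-type wing replicate 2 (1.09, adjusted p = 0.0911) or 3 (0.0579), or without wild-type antenna replicate 1 (0.0626) or 2 (0.0726). With the signal of a bacterial control (phe, below) as a covariate, eye minus wing was 1.64 (adjusted p = 0.0609) and antenna minus wing 1.13 (adjusted p = 0.256).

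The ectopic level exceeded that of the eye disc itself. For 1628005_at the group means lay above the eye mean by 2.31 in UAS-ey leg (4.96-fold), 0.91 in UAS-ey wing (1.88-fold), 2.23 in Uey antenna (4.70-fold) and 2.52 in ato-mutant UAS-ey leg discs (5.72-fold). Of the 12 arrays with ectopic ey, 11 lay above the highest eye array, and for 1629484_s_at all 12 did. The retinal genes gl and eya showed the other order in UAS-ey leg discs. gl (glass), the photoreceptor regulator, read 11.87 to 12.28 in eye discs and 9.89 to 10.27 in UAS-ey leg discs. eya (eyes absent), a retinal determination gene, read 12.63 to 12.73 in eye discs and 12.04 to 12.09 in UAS-ey leg discs. Of the 187 genes higher in all 4 contrasts, 149 (79.7%) had all 4 ectopic means above the eye mean and 16 (8.56%) had all 4 below it, so chinmo is with the majority of that set.

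Loss of ato left the chinmo signal high, which the choice of the gene required. The gene was chosen as higher than wild type in both leg groups with ectopic ey. The test here thus bears only on the size of a difference between those groups. ato-mutant UAS-ey leg discs differed from UAS-ey leg discs by 0.21 for 1628005_at (95% interval -0.46 to 0.87, limma adjusted p = 0.827) and by 0.27 for 1629484_s_at (-0.44 to 0.98, adjusted p = 0.723), with overlapping arrays. In the same comparison 14.5% of all probe sets were higher and 9.03% lower. Some genes of the ectopic eye were lower without ato. gl read 9.97, 9.89 and 10.27 in UAS-ey leg discs and was at the floor on all 3 ato-mutant arrays, at least 8.76-fold lower. Appl, the neuronal amyloid precursor gene, was lower by 2.25 (SE 0.25, adjusted p = 4.37e-06), and eya was lower by 1.20 (adjusted p = 0.00108). With phe as a covariate gl and Appl still passed (adjusted p = 0.000118 and 0.0222), and eya did not (0.628). Of 9 measured photoreceptor and cone markers, 8 were lower and 1 higher without ato.

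The size of the chinmo change was then compared between discs. The leg difference exceeded the wing difference by 0.56 (95% interval -0.38 to 1.5, limma adjusted p = 0.601) for 1628005_at and by 1.0 (-0.01 to 2.0, adjusted p = 0.297) for 1629484_s_at. Leg against antenna gave 0.41 (adjusted p = 0.932) and 0.60 (adjusted p = 0.761), and antenna against wing 0.15 and 0.39 (adjusted p = 1.0 for both). No difference between discs passed the test, and the intervals leave room for changes of over 1 log2 unit in either leg comparison. Of all probe sets, 4.69% passed between leg and wing, 2.21% between leg and antenna and 0.943% between antenna and wing.

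The wing values turned on a single array. Without UAS-ey wing replicate 1, the chinmo difference in wing discs was 2.05 (4.15-fold) for 1628005_at and 1.64 (3.13-fold) for 1629484_s_at. The leg change then exceeded the wing change by 1.12 (adjusted p = 0.0176) and by 1.56 (adjusted p = 0.00704). Without replicate 2 the wing difference for 1628005_at was 3.04 (8.23-fold). In leg discs leaving out single arrays moved it between 2.99 and 3.33, in antennal discs between 2.74 and 2.79 and in ato-mutant leg discs between 3.21 and 3.51.

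Other genes separated the UAS-ey wing arrays too, in both directions. Replicate 1 had the highest of the 3 values for 9 of the 10 genes most like chinmo, which were chosen on these arrays. It was highest for 277 (50.2%) of the 552 probe sets higher with UAS-ey in wing discs, and for 5035 (34.8%) of the 14480 probe sets that were not equal on the 3 arrays. ftz-f1 read 11.27, 9.59 and 10.22, in the same order as chinmo. eya was even, with 11.53, 11.57 and 11.51. gl was lowest on replicate 1, with 8.09, 9.18 and 8.81. The UAS-ey wing array with the highest chinmo signal thus had the lowest gl signal.

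**Figure D3:**
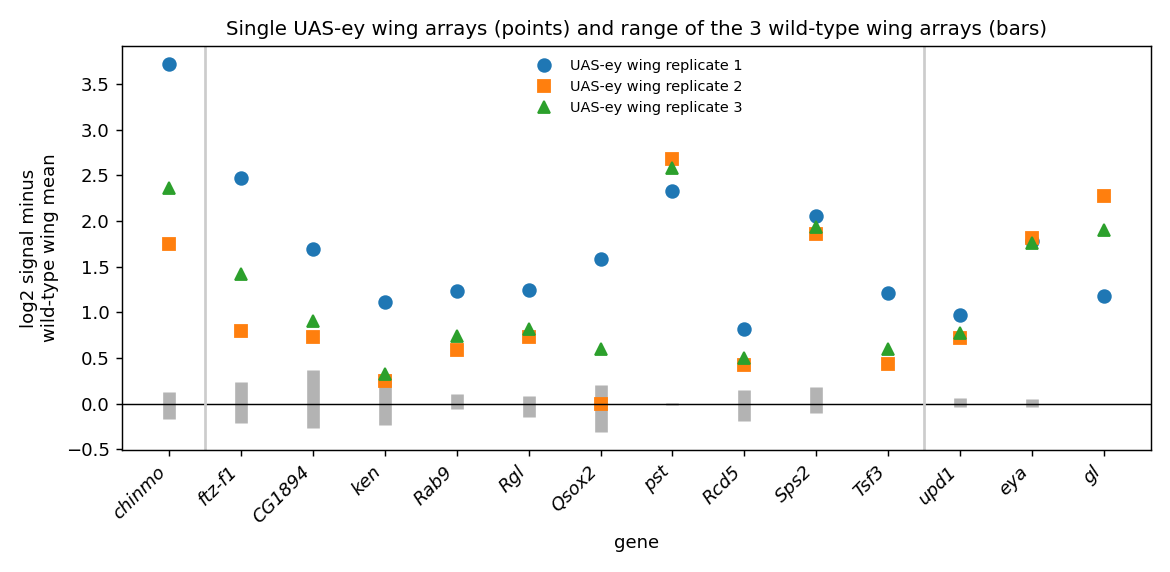
log2 signal of the 3 UAS-ey wing arrays (points) minus the mean of the 3 wild-type wing arrays, whose range is drawn as a grey bar, for chinmo, the 10 genes most like it, upd1, eya and gl. Replicate 1 was highest for chinmo and ftz-f1 (11.27), level with the others for eya (11.53) and lowest for gl (8.09).

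JAK/STAT signalling was examined by role, with 11 of the 14 listed genes measured (upd3, hop and Socs36E were not analysed here). In UAS-ey leg discs 4 rose and 0 fell, against 9.02% higher and 10.3% lower over all probe sets, and the median change of the list was 0.23 against 0.00. In wing discs 1 rose and 0 fell (2.94% and 2.38% of all), in antennal discs 2 and 0 (7.04% and 4.46%), and in ato-mutant leg discs 6 and 0 (12.3% and 8.87%). The balance of all probe sets in ato-mutant leg discs, 2303 higher and 1665 lower, turned to 1767 and 3123 after quantile normalization and 1610 and 2701 after centring. Of the representative probe sets, that of upd1 passed in all 4 contrasts and that of ken in 3. With the phe signal as a covariate, 2 passed in leg discs. Ptp61F, a phosphatase that lowers signalling, did not pass by its representative, but its more variable probe set 1635729_a_at was higher in all 4 contrasts, by 0.84, 0.47, 0.44 and 0.33 (adjusted p = 1.58e-05, 0.00963, 0.00709 and 0.0278), and lower without ato, by 0.51 (adjusted p = 0.0013, and 0.285 with phe). Its ato-mutant call was lost after quantile normalization (adjusted p = 0.268), after centring (0.147) and without replicate 2 or 3 of either group (0.076 to 0.154), and its wing call without wild-type wing replicate 1 (0.0506).

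upd1, a ligand of the pathway, read 8.03, 7.74 and 7.91 in wild-type leg discs and 10.55, 10.56 and 10.83 with UAS-ey. It rose by 2.75 there (SE 0.16, 6.74-fold, limma adjusted p = 1.06e-09), by 0.82 in wing (adjusted p = 0.00358), by 0.91 in antennal (adjusted p = 0.000685) and by 2.11 in ato-mutant leg discs (adjusted p = 2.8e-08). Unlike chinmo, upd1 was at the floor on all 4 eye arrays. Its change in leg discs exceeded those in wing and antennal discs by 1.93 (adjusted p = 0.000147) and 1.84 (adjusted p = 7.9e-05), in comparisons that cross the sets of the phe control. The changes of upd1 and chinmo were not tested against each other. Without ato upd1 was lower by 0.64 (adjusted p = 0.00678), a call lost with the phe covariate (adjusted p = 0.825) and in a fit of the 2 groups alone (adjusted p = 0.255). The ligand gene upd2 was at the floor on every array.

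dome, the receptor, rose by 0.87 in UAS-ey leg discs (adjusted p = 5.83e-05) and by 0.58 in ato-mutant leg discs (adjusted p = 0.00185). In wing and antennal discs its differences were 0.22 and 0.30 (adjusted p = 0.421 and 0.145). et, a receptor relative that lowers signalling, rose in ato-mutant leg discs (0.53, adjusted p = 0.0102), and so did the suppressor gene Socs44A (0.41, adjusted p = 0.0486), which did not pass against UAS-ey leg discs. The transcription factor Stat92E had differences of 0.11, 0.00, -0.01 and 0.25 in leg, wing, antenna and ato-mutant leg, and none passed. apt, a nuclear antagonist of the pathway known from border cells, rose by 0.47 in UAS-ey leg discs (adjusted p = 0.0318) and by 0.88 in ato-mutant leg discs (adjusted p = 0.000315). The ato-mutant calls of dome and apt were lost with only the groups compared (adjusted p = 0.0899 and 0.0518). The apt leg call was lost without wild-type leg replicate 1 or 2 or UAS-ey leg replicate 2 or 3 (adjusted p = 0.0788 to 0.171). The Socs44A call was lost without wild-type leg replicate 2 or 3 or ato-mutant replicate 2 or 3 (adjusted p = 0.103 to 0.203).

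ken (ken and barbie) encodes a BTB zinc-finger repressor that acts on a subset of STAT targets. It rose by 1.33 in UAS-ey leg (adjusted p = 0.00019), 0.92 in Uey antennal (adjusted p = 0.00576) and 1.34 in ato-mutant leg discs (adjusted p = 0.000125). In wing discs it read 11.40, 10.53 and 10.61 against 10.19, 10.05 and 10.61, a difference of 0.56 that did not pass (adjusted p = 0.156). Its leg call was lost with the phe covariate (1.20, adjusted p = 0.103), and the ato-mutant call in a fit of those 2 groups alone (adjusted p = 0.053).

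Of the genes of temporal and stage identity, few passed in any contrast. Of 18 listed, 15 were measured (let7-C, Eip75B and Eip74EF were not analysed here). In leg discs 2 rose and 0 fell (9.02% and 10.3% of all probe sets), in wing discs 1 and 1 (2.94% and 2.38%), in antennal discs 3 and 1 (7.04% and 4.46%), and in ato-mutant leg discs 2 and 0 (12.3% and 8.87%). The list medians were 0.00, 0.04, 0.13 and 0.12. br, the gene that succeeds chinmo, was high in all discs, from 12.50 to 13.07, with differences of -0.18, 0.01, -0.03 and -0.11 that did not pass. Eip93F, the adult-stage regulator, and the neural temporal gene cas were at or next to the floor, where no change downwards and no level can be read.

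ftz-f1, an orphan nuclear receptor of the ecdysone response, was the member that passed in all 4 contrasts. It read 8.75, 8.45 and 9.43 in wild-type leg discs against 10.82, 10.76 and 11.09 with UAS-ey, and 9.45, 9.99 and 9.69 in wild-type antennal discs against 11.53, 11.47 and 11.53 with Uey. The rises were 2.01 (SE 0.30, 4.03-fold, limma adjusted p = 0.000132) in leg, 1.56 (adjusted p = 0.00334) in wing, 1.80 (adjusted p = 0.000432) in antenna and 2.42 (adjusted p = 1.17e-05) in ato-mutant leg discs. With the phe covariate the leg value was 1.82 (adjusted p = 0.0859), and in a fit of the wing groups alone the wing call was lost (adjusted p = 0.367). A dimmer ftz-f1 probe set, 1624520_a_at, was at the floor on all wild-type leg, wing and antennal arrays. It reached 8.34, 8.12 and 8.95 in UAS-ey leg discs, while in UAS-ey wing discs replicate 1 read 8.66 and the others were at the floor. Loss of ato gave 0.41 for ftz-f1 (adjusted p = 0.397), and the eye disc exceeded the leg by 0.86 (adjusted p = 0.0431) and the wing by 0.94 (adjusted p = 0.0175, and 0.0849 without wild-type wing replicate 2). The eye and leg call was lost when any of 6 single arrays was left out, with adjusted p up to 0.226.

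Imp, the RNA-binding partner of chinmo in neural stem cells, rose by 0.57 in UAS-ey leg discs (adjusted p = 0.0226) and by 0.65 in ato-mutant leg discs (adjusted p = 0.00879). With only the groups compared neither passed (adjusted p = 0.0683 and 0.0824), and with phe the leg call was lost (0.0548). A dimmer Imp probe set, 1629905_s_at, passed in neither (0.7 and 0.47, adjusted p = 0.0602 and 0.227). The representative Imp probe set differed by 0.56 in wing discs (adjusted p = 0.0627) and by 0.22 in antennal discs (adjusted p = 0.59). The leg call was lost without UAS-ey leg replicate 3 or wild-type leg replicate 2 or 3 (adjusted p = 0.099, 0.0638 and 0.0815). Syp, its opposite in the brain, had differences of 0.33, 0.17, 0.13 and -0.13, and none passed. A dimmer Syp probe set, 1640760_at, was higher in ato-mutant leg discs (1.11, adjusted p = 0.0061). In the eye disc, where chinmo 1628005_at exceeded the wing, Imp was lower than in leg (by 1.08, adjusted p = 7.04e-05), wing (by 0.82, adjusted p = 0.00079) and antenna (by 1.64, adjusted p = 3.83e-07). The representative br probe set was lower there too, by 0.26, 0.35 and 0.37 (adjusted p = 0.0169, 0.00166 and 0.00197). With the phe covariate the calls against leg and wing were lost for Imp (adjusted p = 0.26 and 0.388) and br (0.619 and 0.164). Centring also ended both br calls (0.187 and 0.102), and the br call against leg was lost with only the groups compared (0.126) and without eye replicate 2 (0.0576) or wild-type leg replicate 3 (0.113). Among the rest, usp and Met rose in antennal discs (0.28 and 0.43), Hr3 fell there by 1.1 to the floor, and svp fell in wing discs by 0.82. The usp and Hr3 calls were lost when any 1 of their 6 arrays was left out (adjusted p = 0.0524 to 0.174), that of Met without wild-type antenna replicate 1 (adjusted p = 0.0569) and that of svp without wild-type wing replicate 3 (adjusted p = 0.0547).

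**Figure D4:**
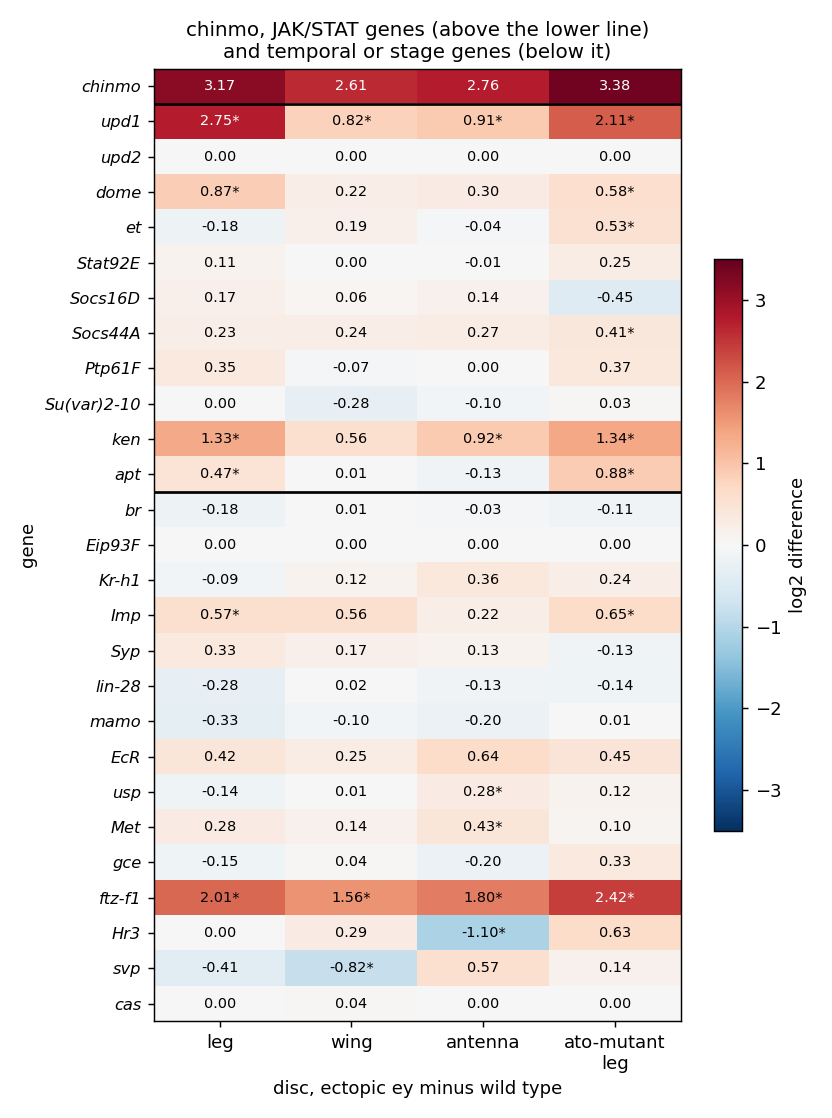
log2 difference between discs with ectopic ey and wild-type discs (colour and printed value) for chinmo 1628005_at, the 11 measured JAK/STAT genes and the 15 measured temporal or stage genes in 4 contrasts. Asterisks mark differences that passed limma's adjusted p of 0.05, and chinmo was not tested. upd1 and ftz-f1 had asterisks in all 4 columns, while br and Stat92E had none. Eip93F and upd2 were at the floor.

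Other transcription factors with a BTB domain showed no common direction by their representative probe sets. Of 12 measured (ab and ttk were not analysed here), 2 rose and 2 fell in leg discs (9.02% and 10.3% of all probe sets), 1 and 0 in wing (2.94% and 2.38%), 3 and 2 in antennal (7.04% and 4.46%) and 2 and 2 in ato-mutant leg discs (12.3% and 8.87%), with medians of -0.02, 0.01, 0.02 and 0.06. bab1 and bab2, which pattern the distal leg, fell by 1.04 and 0.54 in UAS-ey leg discs, by 1.11 and 0.93 in Uey antennal discs and by 0.72 and 0.38 in ato-mutant leg discs, where the bab2 call was lost without wild-type replicate 1 or 3 or ato-mutant replicate 1 or 2 (adjusted p = 0.0929 to 0.15). mod(mdg4), a chromatin insulator gene, rose by 0.21, 0.22 and 0.22 in the same discs. Its most variable probe set, 1639006_at, disagreed, with -2.21 in leg discs (-0.47 with phe, adjusted p = 0.51). For lola, a regulator of axon growth with many isoforms, the representative probe set rose in wing (0.46, adjusted p = 0.0158) and antennal discs (0.38, adjusted p = 0.0277). The wing call was lost without UAS-ey replicate 1 or wild-type replicate 3, and the antennal call without Uey or wild-type replicate 2 or 3 (adjusted p = 0.069 to 0.128). Its most variable probe set, 1640280_at, was higher in all 4 contrasts, by 1.75, 1.19, 1.38 and 1.38. For fru (fruitless), known for its role in courtship neurons, the representative did not pass, while the more variable 1631498_a_at was higher in all 4, by 1.97, 1.48, 1.5 and 2.15 (adjusted p = 0.000737, 0.0194, 0.00864 and 0.000275). This fru probe set read 10.57, 8.34 and 9.2 in UAS-ey wing discs, in the order of chinmo, and its wing call was lost without UAS-ey replicate 1 (0.88, adjusted p = 0.0652) or wild-type replicate 2 (adjusted p = 0.0772) and its leg call with phe (1.66, adjusted p = 0.221). Between ato-mutant and UAS-ey leg discs no representative BTB probe set passed, but 1639006_at of mod(mdg4) was higher by 2.76 (adjusted p = 9.64e-06), and with phe by 0.72 (adjusted p = 0.327).

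Of 10 measured retinal determination genes, 7 rose and 1 fell in leg discs (9.02% and 10.3% of all probe sets), 7 and 0 in wing discs (2.94% and 2.38%), 4 and 1 in antennal discs (7.04% and 4.46%) and 7 and 1 in ato-mutant leg discs (12.3% and 8.87%), with medians of 1.45, 1.1, 0.22 and 0.94. eya rose by 3.91, 1.79, 1.90 and 2.72, so (sine oculis) by 1.04, 1.27, 1.56 and 1.0 and Optix by 2.38, 0.93, 1.32 and 3.72. The Optix call in wing discs was lost without UAS-ey replicate 1 or wild-type replicate 1 (adjusted p = 0.107 and 0.0812). toy, the other Pax6 gene, rose by 1.85 in leg, 0.82 in wing and 2.59 in ato-mutant leg discs, lower bounds because wild-type leg and wing discs were at the floor. dan and danr, nuclear partners of the network, rose by 2.73 and 3.78 in leg, 1.90 and 2.72 in wing and 0.88 and 1.69 in ato-mutant leg discs. Between ato-mutant and UAS-ey leg discs the list divided, against 14.5% higher and 9.03% lower over all probe sets. The 4 higher were Optix (by 1.34), toy (by 0.74), ey and tsh. The 4 lower were dan (by 1.85), danr (by 2.09), eya and dac. The comparison crosses the sets of the phe control, and with phe as a covariate 0 were higher and 1 lower, dan by 1.52 (adjusted p = 0.0109). The probe set of ey itself was the 1 that fell in UAS-ey leg discs, by 1.45, and it did not pass in the others, so it did not follow the transgene. It was also lower in wild-type eye than in wild-type leg and wing discs. Each of these ey calls, and the higher call without ato, crosses the sets of the phe control.

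Of the disc damage and regeneration genes, 10 of 15 were measured, with upd1 on this list too. In leg discs 4 rose and 2 fell (9.02% and 10.3% of all probe sets), in wing discs 4 and 0 (2.94% and 2.38%), in antennal discs 3 and 0 (7.04% and 4.46%) and in ato-mutant leg discs 5 and 0 (12.3% and 8.87%), with medians of 0.13, 0.45, 0.07 and 0.83. Ilp8, the relaxin-like signal of disturbed disc growth, was at the floor on every wild-type array. It rose by 3.49 in UAS-ey leg, 0.83 in wing, 2.38 in antennal and 2.2 in ato-mutant leg discs, each a lower bound. Mmp2, a matrix metalloproteinase, rose by 2.53, 1.25 and 1.66 in leg, wing and antennal discs, and skl, a cell death gene, by 0.87 in leg, 1.79 in wing and 0.92 in ato-mutant leg discs. The Mmp2 wing call was lost without UAS-ey replicate 2 or 3 or wild-type replicate 1 or 3 (adjusted p = 0.0669 to 0.124), and the skl leg call without UAS-ey replicate 3 (adjusted p = 0.0656). puc, a target of JNK signalling, rose in ato-mutant leg discs by 0.80 (adjusted p = 0.00416).

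The genes whose profile over the 25 arrays was most like that of chinmo 1628005_at were taken from 1390 genes that varied by at least 1 log2 unit between groups. The Pearson correlations were 0.96 for ftz-f1, 0.95 for CG1894, ken and Rab9, 0.94 for Rgl, 0.93 for Qsox2 and 0.92 for pst, Rcd5, Sps2 and Tsf3. The median over all 1390 was 0.0192. CG1894 is represented by 1635886_s_at, which rose by 1.29, 1.11, 1.31 and 1.42 in leg, wing, antennal and ato-mutant leg discs. Its other probe set, 1625237_at, had differences of 0.09, -0.03, 0.08 and -0.05, and none passed. Rab9 encodes a small GTPase of endosomal sorting, Rgl an activator of the GTPase Ral, Qsox2 a sulfhydryl oxidase, Sps2 a selenophosphate synthetase and Tsf3 a transferrin. Over the 8 group means the 10 correlations lay between 0.9330 and 0.9784, and 7 of the 10 were also among the highest 10 by that measure. The most opposite profiles were those of Sans (-0.91), CG14013 and CG31189 (-0.90 each). In the 10 like profiles the high values come largely from the same 12 arrays, those with ectopic ey.

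Within groups these genes differed from each other. After removal of group means, the correlation with chinmo over the 25 arrays was 0.8957 for ftz-f1, 0.8292 for ken, 0.8700 for Tsf3 and -0.4255 for pst. Over the 22 arrays without UAS-ey wing discs it was 0.7095 for ftz-f1, 0.7814 for ken, 0.5559 for Tsf3 and 0.0060 for pst. ftz-f1 and ken thus followed chinmo also between arrays of one group. The correlation over 25 arrays that chose these genes includes such within-group differences, so this is a description and no test. In wild-type leg discs, for example, all 3 genes were lowest on replicate 2 (chinmo 7.78, ftz-f1 8.45, ken 9.74) and highest on replicate 3 (8.38, 9.43 and 10.58). pst followed it between groups only. It was even in UAS-ey wing discs (9.76, 10.11 and 10.01) and, unlike chinmo, higher without ato, by 0.66 (adjusted p = 0.000152, and 0.209 with phe).

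**Figure D5:**
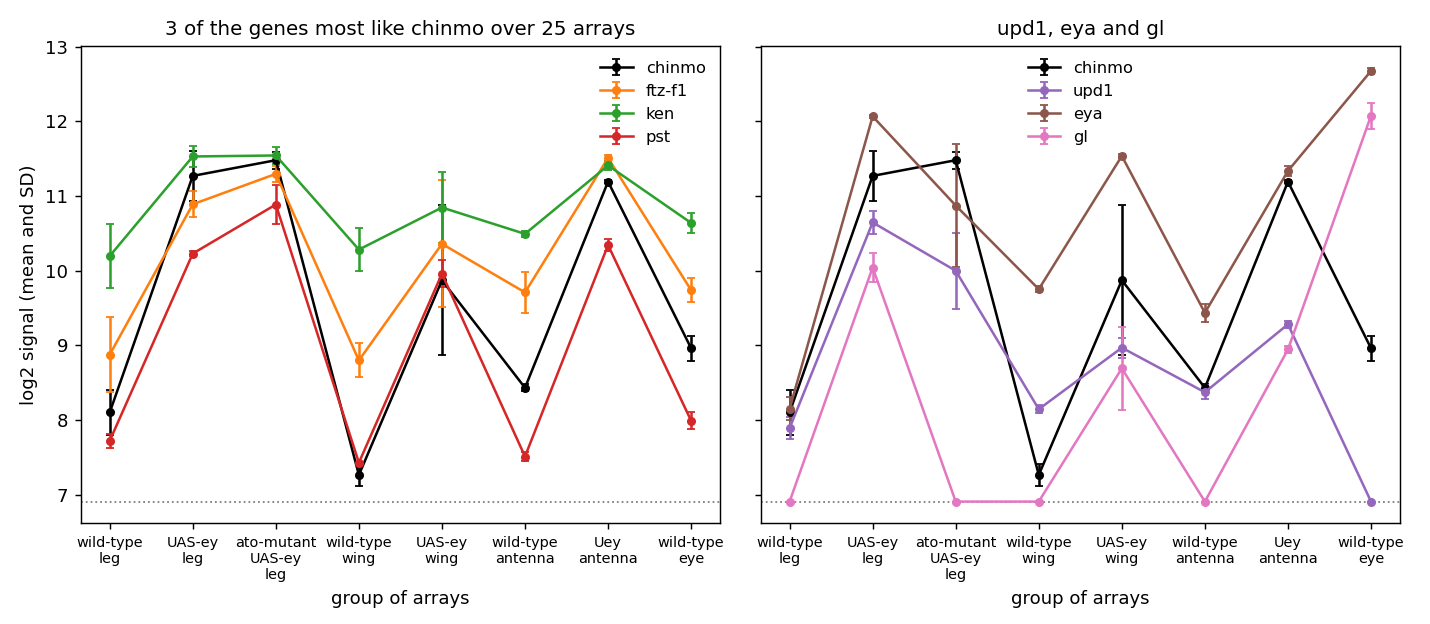
Mean log2 signal with SD in the 8 groups for chinmo with ftz-f1, ken and pst (left) and with upd1, eya and gl (right). The dotted line is the floor. For each gene on the left, all 4 means with ectopic ey lay above all 4 wild-type means, while upd1 was at the floor in eye discs and gl was at the floor in ato-mutant UAS-ey leg discs.

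Markers of other cells and of RNA quality were read on the same arrays. Of 10 neuroblast and neuron markers, 1 rose and 4 fell in UAS-ey leg discs (9.02% and 10.3% of all probe sets), 1 and 1 in wing (2.94% and 2.38%), 2 and 2 in antennal (7.04% and 4.46%) and 1 and 3 in ato-mutant leg discs (12.3% and 8.87%). The same shares stand behind the haemocyte, fat body, muscle precursor and salivary gland counts. The summed linear signal of the neuroblast and neuron markers was 4924 to 5218 in wild-type and 5543 to 5916 in UAS-ey leg discs. It was 4475 to 4684 and 5087 to 5887 in wing discs, and 11143 to 11382 in eye discs. The neuroblast gene wor was at the floor on all wild-type leg, antennal and eye arrays and on all arrays of the UAS-ey leg, UAS-ey wing and Uey antennal groups. The neuroblast genes dpn, ase, mira and insc were those that fell in UAS-ey leg discs, the dpn call being lost without UAS-ey replicate 1 or wild-type replicate 3 (adjusted p = 0.0638 and 0.0706) and the ase call without wild-type replicate 2 (adjusted p = 0.0719). All 6 haemocyte markers rose in ato-mutant leg discs, where their sum was 2472 to 9737 against 1036 to 1564 in wild-type and 948 to 1115 in UAS-ey leg discs. In UAS-ey leg discs, where chinmo read 10.96 to 11.62, 0 haemocyte markers rose and 1 fell. The 2 measured fat body markers summed to 17583 to 20619 in ato-mutant leg discs. The sums were 2730 to 5561 in wild-type and 1443 to 5105 in UAS-ey leg discs, and 0 of the 2 passed against either. Of 4 measured muscle precursor markers, 3 fell in Uey antennal discs and 0 rose. Salivary gland markers fell with UAS-ey in leg (5 of 6) and wing discs (4 of 6), with sums of 2224 to 3147 against 10369 to 16833 in leg discs, and 0 of 6 passed in antennal discs. The part of these cells in the chinmo values was not tested.

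The bacterial control phe read 7.89 to 9.50 on 13 arrays, those of antennal and eye discs and of UAS-ey leg discs, and 9.77 to 11.15 on the other 12. The wing, antennal and ato-mutant against wild-type leg contrasts of chinmo thus lie within a set, and the UAS-ey leg contrast crosses the sets. The test of ato-mutant against UAS-ey leg and those of eye or antenna against leg or wing cross them too. Within a set, the chinmo differences for 1628005_at were 2.61, 2.76 and 3.38. With phe as a covariate the leg difference was 3.1 for 1628005_at and 3.27 for 1629484_s_at. The 3' minus 5' difference of the GAPDH control, which reflects how intact and how long the labelled RNA was, was 1.84 in wild-type, 2.13 in UAS-ey and 2.96 in ato-mutant UAS-ey leg discs. It was 2.27 and 2.60 in wild-type and UAS-ey wing discs, 2.07 and 2.28 in wild-type and Uey antennal discs and 1.89 in eye discs, so it was higher with ectopic ey in each disc. Its part in the chinmo values was not tested.

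No RefSeq gene overlaps chinmo. Of its neighbours, lncRNA:CR45695 had no probe set of its own, and cpb, the gene of an actin capping protein subunit, had differences of 0.12, -0.06, -0.17 and 0.07 in leg, wing, antenna and ato-mutant leg, none of which passed.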

How the data were processed

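Trizol RNA, 100 ng a sample, was amplified in 2 cycles and labelled with biotin for Affymetrix arrays, per the labels' protocols. The deposited values span a range that fits a log2 scale. No source used here gives the software, the summarisation of probes or the scaling. The lowest value of every array, 6.91 (120.5 linear), was treated as a floor set by the authors, and differences that start or end there are lower bounds. Array medians of 7.54 to 7.86 (1.25-fold) were left as deposited, since they differed by less than the limit of 1.5-fold. The signals reached 14.33.

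Of 18952 probe sets, 183 controls were left out and 18769 were tested. The platform annotation gave 1 gene for 13646, several for 402 and none for 4721; 13543 of those with 1 gene matched a RefSeq gene (Release 6 annotation, used for names and neighbours only). Where a gene had several probe sets, the brightest on average represents it. limma 3.58.1 in R 4.3.3 fitted a mean per group on all 25 arrays (17 residual and 0.45 prior degrees of freedom), with two-sided tests and Benjamini-Hochberg adjustment over all tested probe sets at 0.05. Where all arrays of a group are at the floor they show no spread, so errors of such genes can be too small. The fit was tested on simulated data. The number of arrays limits the precision.

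The gene, its lists and the alternatives were chosen with earlier results of these data known. The rule named all chinmo probe sets, list members that passed in at least 3 of the 4 contrasts or had the smallest adjusted p in 1 of them, all measured JAK/STAT and temporal genes as counts, and the 10 most and 3 least similar genes (at least 1 log2 unit between group means, at the floor on at most 12 arrays). gl, Appl, puc, the neuroblast genes and the probe sets other than the representative were named after their values were seen. Same-numbered replicates did not pair. The alternatives were quantile normalization, array-wise centring, only the groups compared, a replicate block, the phe signal as covariate, a floor filter, eBayes with trend and robust, the most variable probe set of a gene and leaving out each array. An array was left out only for the contrasts that include its group.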

Additional observations from a re-analysis of the deposited data

Results flagged for a closer look

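Of the 55 eye groups examined (4 arrays each), 2 had an array far from the others. chinmo 1636985_s_at read 7.02 on 1 eye array and 6.91, the floor, on the other 3, and puc read 9.9 on 1 array and 10.22 to 10.27 on the others. With 3 of 4 arrays at the floor any value above it is flagged, so the chinmo flag carries no weight. Chance flags about 1 in 20 groups without such ties.

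For chinmo no difference of the change between discs passed with all arrays. Without UAS-ey wing replicate 1 leg and wing differed, by 1.12 and 1.56 for the 2 brighter probe sets (limma adjusted p = 0.0176 and 0.00704). Genes of other roles differed with all arrays by the same interaction test, over every gene named with values in the report. Changes in UAS-ey leg discs cross the sets of the phe control. With phe as a covariate, the probe sets that passed went from 880 to 15 for leg against wing. For leg against antenna they went from 414 to 197. The values below are without that covariate. For upd1 the change in leg discs exceeded that in wing discs by 1.93 (adjusted p = 0.000147) and that in antennal discs by 1.84 (adjusted p = 7.9e-05), and for dome the leg change exceeded the wing change by 0.65 (adjusted p = 0.0335). Retinal genes differed too. The leg change exceeded the wing and the antennal change by 2.13 and 2.01 for eya (adjusted p = 0.00162 and 0.0019), by 1.03 and 1.54 for toy (adjusted p = 0.0102 and 0.000452), by 1.35 and 1.1 for gl (adjusted p = 0.00477 and 0.0225) and by 0.83 and 2.61 for dan (adjusted p = 0.0365 and 4.24e-07). For danr leg exceeded antenna by 3.76 (adjusted p = 4.24e-07), and for Optix leg exceeded wing by 1.45 (adjusted p = 0.0104). Antenna minus wing was -1.79 for dan and -2.7 for danr (adjusted p = 7.64e-05 and 4.22e-05). The ey probe set gave -1.76 for leg minus wing (adjusted p = 0.012).

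For Ilp8, leg exceeded wing by 2.66 and antenna by 1.1, and antenna exceeded wing by 1.55 (adjusted p = 6.4e-08, 0.00068 and 1.27e-05). Antenna minus wing was 1.39 for svp (adjusted p = 0.00813) and -1.48 for skl (adjusted p = 0.0439). For bab1, at the floor in both wing groups, leg minus wing was -1.04 and antenna minus wing -1.11 (adjusted p = 0.00251 and 0.0013). Leg minus wing was -0.67 for mira (adjusted p = 0.00417). Among genes of like or opposite profile it was 0.7 for Tsf3 (adjusted p = 0.0498, wild-type wing at the floor), -0.83 for CG31189 (adjusted p = 0.00935) and -0.73 for CG14013 (adjusted p = 0.0435).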

How the results depend on the processing

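The 4 differences of chinmo 1628005_at with ectopic ey stayed positive under every alternative run. The antennal value was 2.68 after quantile normalization. Eye minus leg passed after quantile normalization (0.89, limma adjusted p = 0.0488), array-wise centring (0.93), with only the groups compared (0.86), with the replicate block (0.94, adjusted p = 0.0477) and without probe sets at the floor (0.86), and with single arrays left out its adjusted p was 0.0528 to 0.23. Eye minus antenna passed with only the groups compared (0.53). The phe covariate ended eye minus wing (1.64) and antenna minus wing (1.13, and 1.09 to 1.24 with single arrays left out). The antenna minus wing difference of the changes was -0.01 after quantile normalization and -0.28 to 0.71 with single arrays left out. Leg minus wing was 0.13 to 1.12, and 0.69 to 1.56 for 1629484_s_at. For 1629484_s_at, eye minus wing passed after centring (0.76), and eye minus antenna was 0.00 after centring and with phe, 0.16 with the block and -0.15 to 0.16 with single arrays left out. 1636985_s_at turned to -0.05 in ato-mutant leg discs after centring and ranged from -0.05 to 0.01 in wing discs. mod(mdg4) turned to 0.03 in eye minus wing after centring.

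List calls (5 lists together, higher and lower) were 17 and 5 in leg discs, and 9 and 1 with phe. The lower count was 5 to 8 with single arrays left out. They were 13 and 1 in wing discs, 6 and 0 with only the groups compared, and 0 to 2 lower without single arrays. With only the groups compared the antennal count rose from 13 to 21 higher, and ato-mutant against wild-type leg went from 20 and 3 to 7 and 0. Without ato the counts were 10 and 7, and 4 and 3 with only the groups compared, 0 and 2 with phe, 11 lower after quantile normalization and 12 lower after centring. Eye minus leg had 11 lower and 5 with phe. Eye minus wing had 12 and 14, then 21 and 7 after centring, 8 lower with only the groups compared, 3 lower with phe and 8 to 16 without single arrays. Over all probe sets, 9.02% were higher and 10.3% lower in leg discs, and 2.94% and 2.38% in wing discs. Antennal discs had 7.04% and 4.46%, ato-mutant leg discs 12.3% and 8.87%, and the comparison without ato 14.5% and 9.03%. Eye minus leg had 6.6% and 9.75%, and eye minus wing 9.5% and 20.1%. The leg counts went from 1693 and 1939 to 310 and 251 with phe. Those of eye minus wing went from 1783 and 3764 to 8377 and 2045 after centring. The causes were not tested.

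Over all probe sets, 3632 passed in leg discs, 2268 with only the groups compared and 561 with phe. In wing discs 999, 138 with only the groups compared and 625 after centring passed. Antennal discs had 2160 and 4114, ato-mutant leg 3968 and 1320, and ato-mutant against UAS-ey leg 4415, 1969 and 311 with phe. Eye minus wing had 5547, 10422 after centring, 2524 and 1034 with phe. Eye minus leg had 3068, 1989 and 800 with phe. Antenna minus wing had 2428, 8114 after centring, 659 and 373 with phe. Antenna minus leg had 1106, 1677 after quantile normalization, 473 and 255 with phe. Leg minus wing had 961 and 194. Leg against wing change had 880, 1440 after quantile normalization, 335 and 15 with phe. Leg against antenna change had 414, 626 after quantile normalization, 1096 and 197 with phe. Centring shifted the median of all probe sets by 0.16 in eye minus wing, 0.15 in antenna minus wing and -0.13 without ato, and the share of higher calls there went from 32.1% to 80.4%, from 25.9% to 83.0% and from 61.6% to 31.1%. In ato-mutant against wild-type leg it went from 58.0% to 37.3%, and to 36.1% after quantile normalization. Counts moved over 1.5 times without wild-type antenna replicate 1 or 2 (antenna against leg 488 and 604, against wing 1165 and 1173), wild-type leg replicate 1 or 2 (antenna against leg 533 and 508, leg against wing 422 and 427), and wild-type wing replicate 1, 2 or 3 (antenna against wing 3860, 984 and 978, leg against wing 3427, 402 and 392). Eye minus wing had 3654 without wild-type wing replicate 2. Leg against wing change had 532 without wild-type leg replicate 1, and antenna against wing change went from 177 to 360 without UAS-ey wing replicate 1 and 286 without wild-type wing replicate 1.

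Same-numbered arrays correlated between -0.401 and 0.354 in their deviations, so the replicate block was only an alternative. It called 3646 in leg and 927 in wing discs. Values near the floor, and 3 or 4 arrays per group, limit what small differences can be seen.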
